A study of Mus musculus with 16 samples.

Results

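The antioxidant enzymes described here are 10 genes whose symbol the platform annotation gives to 11 of the 25697 probes in the deposited table, out of 16593 gene symbols in all: Sod1, Sod2, Sod3, Cat, Gpx1, Gpx3, Prdx3, Txn2, Nqo1 and Hmox1. Their messenger RNA was measured on 16 Illumina BeadChip arrays in left ventricles of male C57BL6 mice that were 12 weeks old when they were randomised. The 4 arrays of the control group were compared with 4 arrays from each of 3 treatments. L-NAME, which blocks nitric oxide synthases, was given for 5 weeks at 0.3 mg/ml in drinking water that also held 1% NaCl. Angiotensin II (AngII), a pressor peptide, was infused for 4 weeks at 0.7 mg/kg/day from a micro-osmotic pump placed under the skin. The combination group received both and is the heart failure model of the series. The labels are silent on whether control and AngII mice also drank salt, so L-NAME and salt cannot be told apart. Nor do the labels say that each array came from a separate mouse, so the p-values measure the spread between samples.

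Antioxidant enzymes remove the reactive oxygen that mitochondria and NADPH oxidases release. Superoxide dismutases turn superoxide into hydrogen peroxide, which catalase, the glutathione peroxidases and the peroxiredoxins reduce to water. Nqo1 and Hmox1 act on quinones and haem and are textbook targets of NRF2, the transcription factor that induces many antioxidant genes. In the heart, where mitochondria fill much of the muscle cell, Sod2, Prdx3 and Txn2 form the defence inside those organelles.

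Levels are the deposited log2 intensities, which compare arrays for 1 gene and not genes with each other. Background was taken as a level of 7.125, below which 95% of the 1356 probes for odorant, pheromone, trace amine and bitter receptors lay. All 10 genes had a probe above it on at least 4 arrays and were tested among 9119 genes with limma, with Benjamini-Hochberg adjustment over all of them and a threshold of 0.05. Combination array 4 stood apart from its group, with a root mean square deviation of 0.484 against 0.215 to 0.323 on the other 15 arrays. Replicates 1 and 2 of every group also deviated together, and so did replicates 3 and 4, so values within each of these sets are given where a result rests on them. Cardiomyocyte markers summed to between 16.98 and 17.22 on every array (8 of 9 on the array, all above background), and none of 6 adipocyte markers was above background. The levels of other cell markers differed more between groups. Smooth muscle and pericyte markers (6 of 8 above background) summed to 13.83 to 14.12 in control, 14.15 to 14.41 under L-NAME, 14.33 to 14.52 under AngII and 14.33 to 14.65 in the combination. Fibroblast markers (8 of 8 above background) summed to 15.06 to 15.29 in control and 15.07 to 15.76 in the combination. Lymphocyte and granulocyte markers (2 of 8 above background) summed to 9.87 to 10.34 and 10.36 to 12.84 in the same groups.

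None of the 10 genes passed the threshold in any treated group against control by limma. For L-NAME and for AngII the share of all tested genes that passed was also 0%, whereas for the combination it was 5.79% (2.95% higher and 2.84% lower). At an unadjusted p under 0.05 there were 3 members for L-NAME, 2 for AngII and 2 for the combination, where 11.4%, 14.4% and 21.4% of all genes passed. The median difference of the members was 0.19 log2 units for L-NAME, 0.10 for AngII and 0.05 for the combination, beside medians over all tested genes of 0.01, 0.01 and 0.00 (-0.0048). Treated and control arrays did not overlap for Gpx1 and Sod3 under L-NAME, Gpx1 under AngII and Nqo1 under the combination. Such separation held for 10.1%, 11.4% and 12.6% of all genes in the 3 comparisons. The 1 member that passed any comparison was Gpx1, between the combination and each single treatment.

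**Figure D1:**
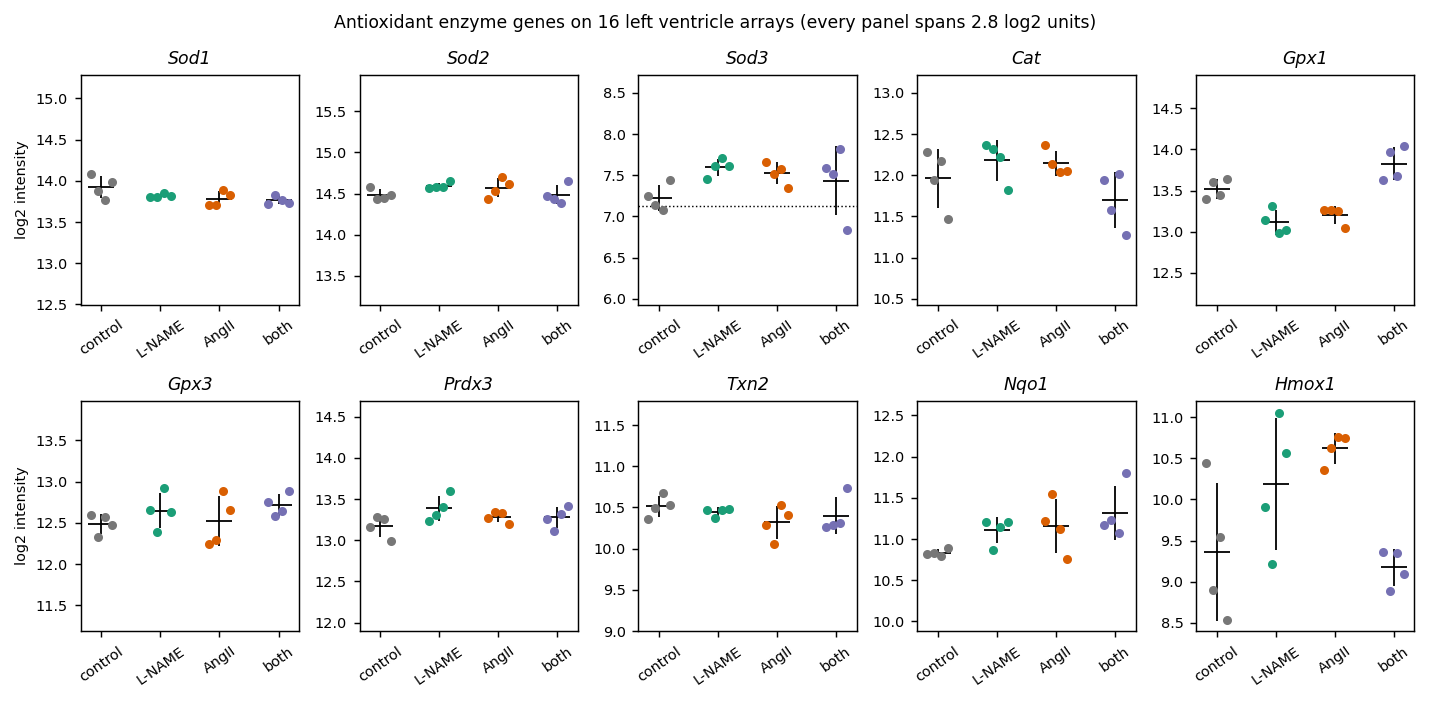
Log2 intensity of the 10 antioxidant enzyme genes on every array, 1 point per array in replicate order, grouped by treatment ("both" is the combination); horizontal bars are means, vertical bars SD (n = 4), and the dotted line in the Sod3 panel is the background of 7.125. All panels span the same number of log2 units: Gpx1 is lowest under the single treatments (means 13.12 and 13.21) and highest in the combination (13.83), Hmox1 spreads most within control and L-NAME, and Sod1 and Sod2 stay within 0.37 and 0.31 log2 units over all arrays.

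Gpx1 encodes the main cytosolic and mitochondrial glutathione peroxidase, a selenoenzyme that reduces hydrogen peroxide at the expense of glutathione. The control arrays 1 to 4 gave 13.40, 13.61, 13.44 and 13.64. The L-NAME arrays gave 13.15, 13.32, 12.98 and 13.02, and the AngII arrays 13.27, 13.27, 13.25 and 13.05. The combination arrays gave 13.63, 13.96, 13.68 and 14.04. Every array of either single treatment lay below every control array and below every combination array, while the combination and control arrays overlapped.

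In group means, Gpx1 was 13.83 ± 0.20 in the combination, 13.52 ± 0.12 in control, 13.21 ± 0.11 under AngII and 13.12 ± 0.15 under L-NAME (SD, n = 4). It rose by 0.71 ± 0.12 log2 units (SE) from L-NAME to the combination, a 1.64-fold difference (limma adjusted p = 0.00558). It rose by 0.62 ± 0.12 from AngII to the combination, or 1.54-fold (adjusted p = 0.0283). Of all tested genes 1.09% rose in the former comparison and 0.428% in the latter. No difference from control passed. The combination was 0.31 ± 0.12 above control (limma adjusted p = 0.144). AngII was 0.31 ± 0.12 below control (adjusted p = 0.238) and L-NAME 0.41 ± 0.12 below it (adjusted p = 0.26). The arrays of AngII and L-NAME overlapped, and their difference was not tested.

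The direction held within both sets of replicates. The combination exceeded L-NAME by 0.57 within replicates 1 and 2 and by 0.86 within replicates 3 and 4, and it exceeded AngII by 0.53 and 0.71. Without combination array 4 the differences were 0.64 (adjusted p = 0.00982) and 0.55 (adjusted p = 0.0348). The difference from AngII was less firm than that from L-NAME. It was positive in all 31 alternative fits and passed in 23 of them (0.48 to 0.69, adjusted p from 0.00206 to 0.23). It did not pass when AngII array 1, 2 or 4 was left out (limma adjusted p of 0.0619, 0.0745 and 0.0995 in turn), nor when combination array 2 was (0.0721). The same held in a fit of those 8 arrays alone (adjusted p = 0.23) and in a fit that adjusted for Myl4, Myl7 and Sln, markers of atrial muscle (a difference of 0.69, adjusted p = 0.0838). The mean of those 3 markers was 7.81 to 10.55 on the combination arrays, 6.94 to 7.73 on the AngII arrays and 7.04 to 9.78 on the control arrays. They are 3 of 7 atrial markers, of which 5 were higher in the combination than under AngII and only Dkk3 passed (2.16, adjusted p = 0.0126), with Nppa and Stard10 at -0.02 and -0.61. The difference from L-NAME passed in 30 of 31 (0.60 to 0.78, adjusted p from 0.000227 to 0.0808), the exception being a fit of those 8 arrays alone.

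The Gpx1 enzyme is abundant in red cells. Of 7 erythroid markers 4 were on the array and all 4 were above background: Hba-a1, Hbb-b2, Alas2 and Slc4a1. Their mean log2 level ranged from 10.53 to 11.08 in control, 9.86 to 10.73 under L-NAME, 9.95 to 10.36 under AngII and 10.14 to 12.44 in the combination, the last value from array 4. All 4 were below control in both single treatments and above it in the combination, and none passed the test. Without combination array 4 the mean of that group was 10.52 and 3 of the 4 genes were below control in it. Relative to AngII their median difference in the combination was 0.85, and relative to L-NAME 0.71, which became 0.28 and 0.20 without that array. With their mean as a covariate, a fit chosen after seeing the data, Gpx1 differed by 0.60 between the combination and L-NAME (adjusted p = 0.0153) and by 0.48 between the combination and AngII (adjusted p = 0.121). The combination arrays 1 to 4 had erythroid means of 10.14, 10.89, 10.53 and 12.44, and Gpx1 levels of 13.63, 13.96, 13.68 and 14.04. The control arrays had 10.66, 10.71, 11.08 and 10.53 beside Gpx1 levels of 13.40, 13.61, 13.44 and 13.64. There the lowest erythroid mean went with the highest Gpx1 level. The L-NAME arrays had 10.73, 10.65, 9.86 and 10.16 beside 13.15, 13.32, 12.98 and 13.02. The AngII arrays had 10.12, 10.36, 10.35 and 9.95 beside 13.27, 13.27, 13.25 and 13.05. The part of red cells in the Gpx1 levels was not tested. In tissue RNA, more cells of a type and more RNA per cell cannot be told apart.

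**Figure D2:**
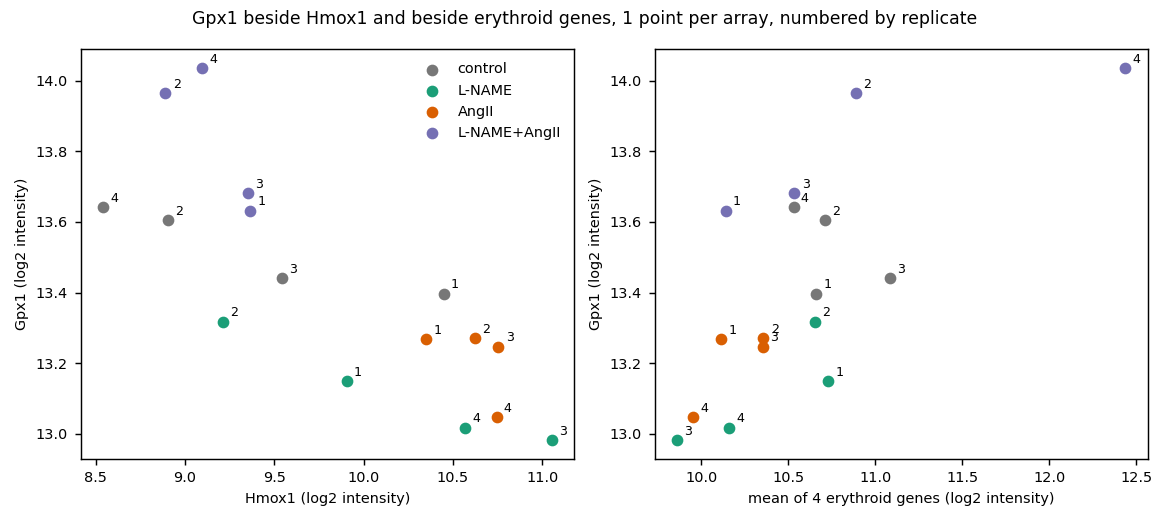
Gpx1 log2 intensity (vertical axes) against Hmox1 log2 intensity (left) and against the mean log2 intensity of 4 erythroid genes (right), 1 point per array, coloured by group and numbered by replicate. The combination arrays lie at 13.63 or more on the Gpx1 axis and at 9.36 or less on the Hmox1 axis, and combination array 4 lies far to the right at an erythroid mean of 12.44.

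The 3 tested genes whose centred values were closest to those of Gpx1 over the 16 arrays were Nus1, Cep83 and Vkorc1l1. Their mean absolute differences from it were 0.115, 0.119 and 0.131 log2 units, where the median over all genes was 0.34. They showed the same order of signs at smaller size, which follows from their choice by likeness to Gpx1 on these same arrays. Nus1 was 0.31 below control under L-NAME, 0.17 below it under AngII and 0.18 above it in the combination, and none of the 3 genes passed in any comparison.

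RefSeq promoters, from 250 bases before to 50 after the start site (build GRCm38.p6), were found for 8 of the 10 genes. Those of Gpx1, which carries the difference between groups, of Sod1, the gene with the 1 match to the antioxidant response element, and of the NRF2 target Nqo1 are printed 5′ to 3′. They lie at chr9:108338830-108339129 on the plus strand, chr16:90220512-90220811 on the plus strand and chr8:107403156-107403455 on the minus strand. Capitals mark the GC box GGGCGG, searched on both strands, and the core TGACNNNGC of the antioxidant response element, the sequence NRF2 binds, also on both strands. A minus-strand match reads as the reverse complement.
Gpx1 promoter: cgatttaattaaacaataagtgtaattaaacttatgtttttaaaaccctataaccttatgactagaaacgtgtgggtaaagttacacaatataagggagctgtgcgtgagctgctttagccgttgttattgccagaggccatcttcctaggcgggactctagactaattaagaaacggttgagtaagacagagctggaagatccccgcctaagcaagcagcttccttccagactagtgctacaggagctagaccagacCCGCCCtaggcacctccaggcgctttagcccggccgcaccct
Sod1 promoter: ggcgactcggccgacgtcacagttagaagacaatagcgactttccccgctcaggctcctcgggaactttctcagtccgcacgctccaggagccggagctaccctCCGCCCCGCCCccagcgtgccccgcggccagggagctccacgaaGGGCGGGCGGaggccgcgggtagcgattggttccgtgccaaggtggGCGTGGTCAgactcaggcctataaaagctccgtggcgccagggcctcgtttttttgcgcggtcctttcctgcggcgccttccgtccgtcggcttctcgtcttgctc
Nqo1 promoter: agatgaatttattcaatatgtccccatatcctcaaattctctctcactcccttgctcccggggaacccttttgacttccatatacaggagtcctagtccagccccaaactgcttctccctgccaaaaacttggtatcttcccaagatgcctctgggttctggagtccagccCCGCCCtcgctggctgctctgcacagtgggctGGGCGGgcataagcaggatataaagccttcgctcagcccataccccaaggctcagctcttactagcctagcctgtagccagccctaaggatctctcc
The GC box was in all 8 promoters, and in 35.7% of the 32851 promoters of the table. Gpx1 has 1, which starts 9 bases after the start site on the minus strand, and Sod1 has 4, of which neighbours overlap. The antioxidant response element core was in 1 of the 8, that of Sod1 at -56 on the minus strand, and in 12.4% of all promoters. The AP-1 site TGANTCA was in 0 of the 8 and 7.81% of all, and CCAAT in 5 of the 8 and 37.4% of all. These windows do not reach distal elements, and a match describes letters, not binding.

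Hmox1 encodes haem oxygenase 1, which breaks haem down to biliverdin, iron and carbon monoxide and is induced by haem and oxidants. The control arrays gave 10.45, 8.90, 9.54 and 8.54, and the L-NAME arrays 9.90, 9.21, 11.05 and 10.57. The AngII arrays were close together at 10.35, 10.63, 10.76 and 10.75, and the combination arrays at 9.36, 8.89, 9.35 and 9.09. All combination arrays lay below all AngII arrays, whereas the control arrays spread from 8.54 to 10.45 and overlapped every other group.

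Mean Hmox1 was 9.36 ± 0.84 in control, 10.18 ± 0.80 under L-NAME, 10.62 ± 0.19 under AngII and 9.18 ± 0.23 in the combination (SD, n = 4). AngII differed from control by 1.26 ± 0.38 log2 units (SE), or 2.40-fold (limma adjusted p = 0.16), and L-NAME by 0.83 ± 0.38 (adjusted p = 0.434). The combination differed from AngII by -1.44 ± 0.38 (adjusted p = 0.0898) and from L-NAME by -1.01 (adjusted p = 0.198). The difference from AngII was negative in all 31 alternatives, from -1.53 to -1.20, and passed in 1 of them, the fit of those 8 arrays alone (adjusted p from 0.0295 to 0.322). It was -1.36 within replicates 1 and 2 and -1.53 within replicates 3 and 4. L-NAME against control depended on the set, at -0.12 within replicates 1 and 2 and 1.77 within replicates 3 and 4.

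Hmox1 spread more within groups than its fellow members. Its pooled within-group SD of 0.598 was at the 95.9th percentile of tested genes, against the 16.7th for Gpx1, the 1.46th for Sod1 and the 2.02nd for Sod2. Macrophages, a cell type rich in Hmox1, had summed marker levels of 13.54 to 13.84 in control, 13.38 to 13.71 under L-NAME, 13.17 to 13.80 under AngII and 13.21 to 14.09 in the combination (7 of 9 markers on the array, all above background). The ranges overlap, with medians of 13.70, 13.56, 13.43 and 13.79 in the same order of groups, and none of the 7 markers passed in any comparison. The part of macrophages in the Hmox1 levels was not tested. With the summed macrophage markers as a covariate, a fit chosen after seeing the data, Hmox1 differed by -1.26 between the combination and AngII (limma adjusted p = 0.118) and by 1.10 between AngII and control (adjusted p = 0.217).

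Nqo1 encodes a quinone reductase. The control arrays were tight, at 10.82, 10.82, 10.80 and 10.89. L-NAME arrays gave 11.21, 10.87, 11.15 and 11.21, AngII arrays 11.22, 11.54, 11.12 and 10.75, and combination arrays 11.17, 11.23, 11.07 and 11.80. Each combination array exceeded all control arrays. The difference of 0.48 ± 0.17 log2 units (SE) did not pass (limma adjusted p = 0.11), nor in any of 31 alternatives (0.32 to 0.58, adjusted p from 0.0592 to 0.227). The lowest value, 0.32, was without combination array 4. L-NAME differed from control by 0.28 and AngII by 0.32 (adjusted p = 0.592 and 0.411). A second Nqo1 probe was above background on 2 arrays and was not tested.

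Cat encodes catalase, the peroxisomal enzyme that splits hydrogen peroxide. The control arrays gave 12.28, 11.94, 12.17 and 11.47, and the combination arrays 11.94, 11.57, 12.01 and 11.28. The L-NAME arrays gave 12.36, 12.32, 12.22 and 11.82, and the AngII arrays 12.37, 12.13, 12.04 and 12.05. The combination arrays lay below all AngII arrays and overlapped the other groups. The combination differed from control by -0.26 ± 0.19 (SE, adjusted p = 0.474), from AngII by -0.45 ± 0.19 (adjusted p = 0.29) and from L-NAME by -0.48 ± 0.19 (adjusted p = 0.228). Over 31 alternatives these ran from -0.43 to -0.10, from -0.55 to -0.12 and from -0.60 to -0.27, and none passed. Without combination array 4 the difference from control was -0.12, and without control array 1 it was -0.16. With the summed erythroid level as a covariate, the differences from control and AngII were -0.10 and -0.12. With the mean of the erythroid genes instead they were -0.22 and -0.31. Both covariate fits were chosen after seeing the data. Thus Cat and Hmox1, unlike Gpx1, were lower in the combination than in both single treatments, and neither difference passed. Sod1, Sod2, Sod3 and Prdx3 had the same signs at smaller size. In all, 6 of the 10 members were lower in the combination than under AngII, and 7 than under L-NAME. For the combination against AngII, Gpx1, Cat and Hmox1 were the 3 members without overlap, where 7.72% of all genes had none. Against L-NAME, Gpx1 was the 1 such member, where 10.3% of all genes had no overlap.

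Gpx3, the secreted glutathione peroxidase of plasma and extracellular matrix, ranged from 12.25 to 12.92 over the 16 arrays, with means of 12.49 in control, 12.65 under L-NAME, 12.52 under AngII and 12.72 in the combination. The groups overlapped in every pair tested. The combination differed from control by 0.23 with a 95% interval from -0.09 to 0.54 (adjusted p = 0.408).

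None of the 3 superoxide dismutases passed in any of the 6 comparisons. Sod1, the copper and zinc enzyme of the cytosol, gave 14.08, 13.88, 13.76 and 13.99 on the control arrays and 13.72, 13.83, 13.77 and 13.74 on the combination arrays. Its L-NAME arrays ran from 13.81 to 13.85 and its AngII arrays from 13.70 to 13.89. The combination differed from control by -0.16 with a 95% interval from -0.35 to 0.03 (adjusted p = 0.327). Sod2, the manganese enzyme of the mitochondrial matrix, ranged from 14.39 to 14.70 on all arrays, with means of 14.49, 14.60, 14.57 and 14.49 in control, L-NAME, AngII and combination. Its 95% interval for the combination against control ran from -0.20 to 0.20 log2 units.

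Sod3, the extracellular form, was near background, above it on 14 of 16 arrays. The control arrays gave 7.25, 7.13, 7.08 and 7.44, and the L-NAME arrays 7.45, 7.61, 7.71 and 7.61. The AngII arrays ranged from 7.35 to 7.66, and the combination arrays were 7.59, 7.51, 7.82 and 6.83. L-NAME arrays lay just above all control arrays, by 0.37 ± 0.17 in the mean (SE, adjusted p = 0.425). The combination differed from control by 0.21 ± 0.17 (adjusted p = 0.516). It passed in 1 of 30 alternatives, with array weights (adjusted p = 0.0458), and over all of them it ran from 0.05 to 0.41 (adjusted p up to 0.905).

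The mitochondrial peroxide-reducing pair, Prdx3 and Txn2, passed in no comparison. Prdx3, the peroxiredoxin of the mitochondrial matrix, ranged from 12.99 to 13.28 in control, 13.24 to 13.59 under L-NAME, 13.19 to 13.34 under AngII and 13.11 to 13.41 in the combination. Its difference from control was 0.21 ± 0.11 under L-NAME (SE, adjusted p = 0.479), 0.11 under AngII and 0.10 in the combination. Txn2, the mitochondrial thioredoxin that recycles Prdx3, had means of 10.51, 10.45, 10.32 and 10.40 in the same order. Its differences from control were -0.06, -0.19 and -0.11 (adjusted p = 0.915, 0.513 and 0.656). Combination array 4 was the highest of all 16 for Txn2, at 10.73.

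**Figure D3:**
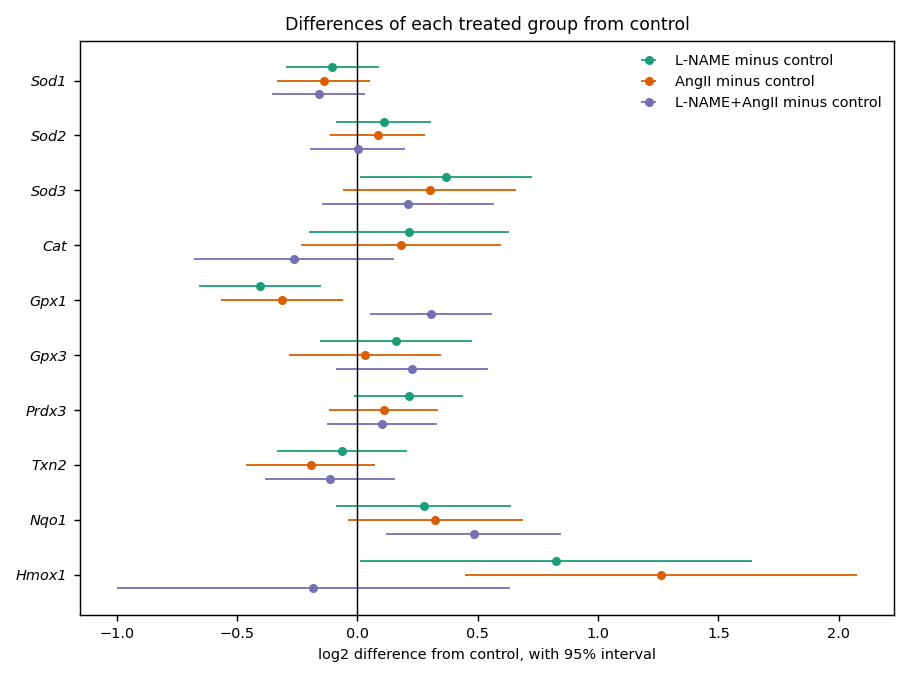
Difference of each treated group from control in log2 units for the 10 genes, as points with 95% intervals from limma (n = 4 arrays a group). The 3 Gpx1 points lie on both sides of 0 (-0.41, -0.31 and 0.31), the Hmox1 intervals are the widest, and none of the differences passed the adjusted threshold.

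Whether the treatments added up was asked with the interaction, the effect of L-NAME in the presence of AngII minus its effect without AngII. For Gpx1 it was 1.03 ± 0.17 log2 units (SE, 95% interval 0.67 to 1.38), positive in all 30 alternatives. It just missed the threshold (limma adjusted p = 0.0548), passed with the replicate number as a block (adjusted p = 0.0466) and in 12 of the alternatives in all (adjusted p from 0.00358 to 0.21). With the erythroid mean as a covariate it was 0.81 (adjusted p = 0.21). For Hmox1 the interaction was -2.27 ± 0.54 (95% interval -3.42 to -1.12, adjusted p = 0.0843), with -1.24 within replicates 1 and 2 and -3.30 within replicates 3 and 4. For Cat it was -0.66 ± 0.28 (adjusted p = 0.253). At an unadjusted p under 0.05 these 3 members passed, where 16.4% of all genes did and 0% passed after adjustment. In the test of any difference among the 4 groups Gpx1 passed (adjusted p = 0.0135), where 2.39% of all genes did, and Hmox1 did not (adjusted p = 0.0965, where 19.9% of genes had an unadjusted p under 0.05).

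Among 116 other tested genes in 10 redox lists, 4 rose and 5 fell in the combination against control, while 0 passed for L-NAME or AngII alone by limma. That is 7.76% for the combination, beside 5.79% of all tested genes. The lists were chosen with earlier results of these data known, so their shares are not independent evidence on redox genes. At an unadjusted p under 0.05 there were 28 for the combination, 15 for L-NAME and 22 for AngII (24.1%, 12.9% and 19.0%, beside 21.4%, 11.4% and 14.4% of all genes). Among the listed genes the largest rises were in Nox4 and Lox, both placed in the list of superoxide and peroxide sources. Nox4, a hydrogen peroxide producing NADPH oxidase, went from 7.11 ± 0.11 in control to 10.02 ± 0.24 in the combination (SD, n = 4), with 7.20 ± 0.44 under L-NAME and 7.87 ± 1.11 under AngII. It was above background on 2 control, 2 L-NAME, 3 AngII and 4 combination arrays, so that its control and L-NAME means lie at about background and the size of its differences from them is uncertain. It rose by 2.91 ± 0.39 log2 units (SE, adjusted p = 0.000816). Lox, the lysyl oxidase that releases hydrogen peroxide as it cross-links collagen, rose by 2.18 ± 0.23 (adjusted p = 0.000214). The other 8 tested genes of the list of superoxide and peroxide sources did not pass. Without combination array 4, Aoc3 (0.70, adjusted p = 0.00478) and Nos3 (0.50, adjusted p = 0.0144) of that list also passed against control. Beside these, the fibroblast marker Mfap5 rose by 2.16 (adjusted p = 0.000282), the smooth muscle marker Acta2 by 0.88 (0.00444) and the neutrophil marker S100a8 by 1.71 (0.0487). Each was the 1 marker of its list to pass, of 8 fibroblast, 6 smooth muscle and pericyte, and 2 lymphocyte and granulocyte markers tested. In those lists 7, 5 and 2 markers lay above control. The lymphocyte and granulocyte markers summed to 11.14, 10.93, 10.36 and 12.84 on combination arrays 1 to 4. The part of these cell types in the Nox4 and Lox levels was not tested.

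The remaining calls were spread over 7 lists, with 1 gene in each. Trp53inp1, a stress-induced p53 target, rose by 1.32 (adjusted p = 0.0197), and Alas1, the first enzyme of haem synthesis, by 0.44 (0.0406). Ces1d, a carboxylesterase, fell by 1.01 (adjusted p = 0.00929), the glutathione S-transferase Gstt1 by 0.65 (0.038) and Glrx3, a glutaredoxin that carries iron-sulphur clusters, by 0.60 (0.0272). Selenoh, a nuclear selenoprotein, fell by 0.56 (adjusted p = 0.00718) and Sirt3, the mitochondrial deacetylase that acts on Sod2 protein, by 0.30 (0.0477, and 0.0511 with the replicate block). Nox4, Lox, Ces1d and Selenoh passed with each array left out in turn. Sirt3 passed in only 1 of these 16 fits, Alas1 in 5, Gstt1 in 9, Glrx3 in 10 and Trp53inp1 in 15. Without combination array 4 there were 5 rises and 6 falls, and 2 falls for AngII against control. The rises then included Aoc3 and Nos3. The falls included Ucp3 (-0.93, adjusted p = 0.00445) and Slc40a1 (-0.51, adjusted p = 0.0488). Alas1 and Gstt1 did not pass in that fit (adjusted p = 0.0752 and 0.0661).

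Of the 12 genes listed as NRF2 pathway regulators, 11 did not pass in the combination against control. The 1 call was Trp53inp1, described above as a p53 target. Nfe2l2, which encodes NRF2, differed by -0.43 (adjusted p = 0.529) between combination and control, its inhibitor Keap1 by 0.06 (0.826) and the repressor Bach1, which silences Hmox1, by -0.62 (0.195). Among 14 NRF2 target detoxification genes beside Nqo1 and Hmox1, Ces1d fell and 13 did not pass. The glutathione synthesis and peroxidase genes other than the members, 9 in number, gave 0 calls by limma and also 0 at an unadjusted p under 0.05 for the combination against control (2 against AngII, 2 against L-NAME and 3 for the interaction, where 21.4%, 15.5%, 16.7% and 16.4% of all genes passed in turn), with Gpx4 at -0.14 (adjusted p = 0.679) and the glutathione synthesis subunit Gclm at -0.09 (0.828). Gpx4 had the same signs as Gpx1 under the single treatments, at -0.28 and -0.34, and neither passed. Srxn1, a sulphiredoxin that reactivates peroxiredoxins, lay lower in the combination than on all AngII arrays, like Hmox1 (-0.71, adjusted p = 0.187). Such separation held for 7.72% of all genes. Srxn1 is from the list of peroxiredoxins, thioredoxins and glutaredoxins. Of its 17 tested genes 10 were higher in the combination than under AngII, and 0 passed.

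**Figure D4:**
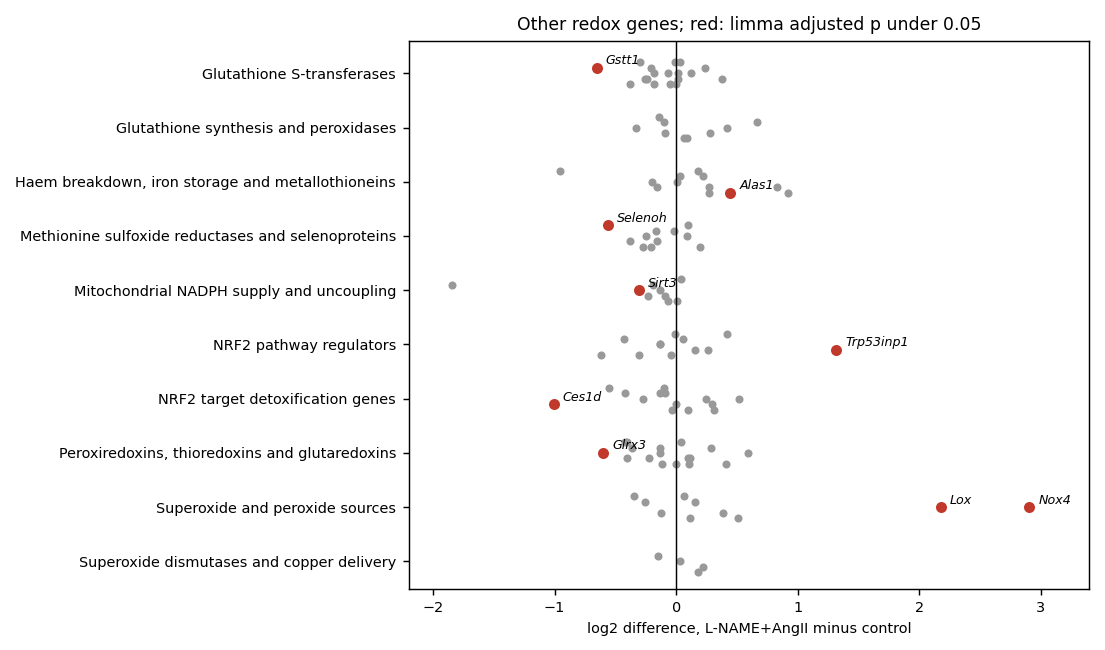
Log2 difference between the combination and control group for 116 genes of 10 redox lists, 1 point per gene, with the 10 antioxidant enzymes left out; red points passed limma's adjusted threshold. Nox4 (2.91, from a control mean at about background) and Lox (2.18) lie far to the right of the others, and 107 genes did not pass.

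Against the single treatments fewer redox genes passed. The combination exceeded AngII in Nox4 (2.15), Lox (1.45) and Tfrc (1.20, adjusted p = 0.0358) and was below it in Ces1d (-1.09). It exceeded L-NAME in Nox4 (2.82, from a mean near background) and Lox (1.83) and was below it in Ces1d (-1.16). Without combination array 4 it was below L-NAME also in Ucp3 (-0.75), Slc40a1 (-0.75) and Gstk1 (-0.48). Mfap5 also rose in both comparisons, by 1.58 from AngII and 2.12 from L-NAME, as the 1 of 8 fibroblast markers to pass in each. Tfrc, the transferrin receptor for iron uptake, is abundant on red cell precursors and was named after its value was seen. Gpx1 was the 1 antioxidant enzyme to pass in these same comparisons, beside 0.735% of all genes in the former and 1.89% in the latter.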

How the data were processed

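Left ventricular RNA of 16 mouse samples in 4 groups was measured on Illumina BeadChips. The authors deposited log2 intensities. Per the submitters' processing notes, GenomeStudio and lumi were used, with versions, any background step and the kind of log2 transform not given in the sources used here. Dim genes are those most open to the latter pair. The largest gap between sorted columns was 0.00132, which shows quantile normalisation of the deposited values (median 6.90 on every array). A table with 64 per-sample columns that match no label was not used. Of the probes 23978 had 1 symbol in the platform annotation, 0 several and 1719 none.

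The filter, above background on 4 or more arrays, left 13020 probes, of which the brightest stood for its gene (9119 genes). limma 3.58.1 in R 4.3.3 fitted 4 group means with moderated variances (12 residual and 3.15 prior degrees of freedom), 6 two-sided contrasts and Benjamini-Hochberg adjustment. Genes named by rule are all members, pathway genes that passed against control (up to 4 a list), and the 3 genes nearest to each member called. Other named genes fall outside that rule and stand as examples. Among them are Srxn1, Gpx4, Gclm, Nfe2l2, Keap1, Bach1, Tfrc and single cell markers. Members and lists were chosen with earlier results of these data known. Precision is limited by 4 arrays a group. The fit was tested on simulated data.

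Same-numbered samples of different groups deviated together in all 24 pairs (r from 0.115 to 0.452). Pairs with other numbers within replicates 1 and 2 or 3 and 4 did so about as much (median 0.232 against 0.281). The check thus shows 2 sets of replicates and does not settle whether the numbers pair the samples. Alternatives were other filters, scalings and variance models, blocks, covariates, fits of 8 arrays and each array left out. Figures were drawn with matplotlib.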

Additional observations from a re-analysis of the deposited data

Results flagged for a closer look

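Of 44 groups of 4 arrays tested with Dixon's ratio, in which chance marks about 1 in 20, 5 held an array far from the other three. Gpx1 under AngII had array 4 at 13.05 against 13.25 to 13.27 (ratio 0.894); without it the combination differed from AngII by 0.57 (limma adjusted p = 0.0995). Txn2 had combination array 4 at 10.73 against 10.27 to 10.31 (0.897) and L-NAME array 2 at 10.37 against 10.47 to 10.48 (0.912). Sod2 had L-NAME array 4 at 14.65 against 14.57 to 14.58 (0.874), and Nqo1 had L-NAME array 2 at 10.87 against 11.15 to 11.21 (0.834). The gaps of Sod2 and of Txn2 under L-NAME are small in size and arise in groups whose other arrays lie close together.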

How the results depend on the processing

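No member's called difference changed sign. With the replicate block the Gpx1 interaction passed (adjusted p = 0.0466), Sirt3 lost its call, and no other call of a named gene in the combination against control was lost. The members that passed numbered as follows where the count moved. For the combination against control it was 1 with array weights (Sod3). Against AngII it was 0 with the summed erythroid level, the erythroid mean or the atrial genes as a covariate, and with each array left out 0 to 1; with only those 8 arrays it was Hmox1 in place of Gpx1. Against L-NAME it was 0 with only those 8 arrays. For the interaction it was 1 with background at the 99th percentile, the filter on all 4 arrays of a group, the macrophage covariate, array weights, the replicate block, the block of 2 sets or median centring, 2 with a trended robust variance, and 0 to 1 with an array left out. For any difference it was 2 with the trended robust variance, 0 with the atrial covariate and 1 to 2 with an array left out. The causes were not tested.

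The number of all genes called moved more. L-NAME against control gave 0, but 41 with array weights. AngII against control gave 0, but 7 without a filter, 21 at the 99th percentile, 24 with the filter on 4 arrays, 138 with the trended robust variance, 3 with the summed erythroid and 1 with the macrophage covariate, 177 with weights, 56 with the replicate block, 49 with the set block, 13 with the atrial covariate, 17 with median centring and 0 to 137 with an array left out. The combination against control gave 528, but 1106 with weights, 834 with the set block, 82 with 8 arrays and 248 to 580 with an array left out. Against AngII it gave 67, but 128 at the 99th percentile, 112 with the filter on 4 arrays, 168 trended, 14 with the summed erythroid, 35 with the erythroid mean, 204 with the macrophage and 3 with the atrial covariate, 293 with weights, 172 with the replicate block, 178 with the set block, 3 with 8 arrays and 20 to 119 with an array left out. Against L-NAME it gave 172, but 280 trended, 362 with the macrophage, 111 with the erythroid mean and 67 with the atrial covariate, 478 with weights, 262 with the replicate block, 293 with the set block, 51 with 8 arrays and 82 to 216 with an array left out. The interaction gave 0, but 60 at the 99th percentile, 48 with the filter on 4 arrays, 156 trended, 21 with the macrophage covariate, 179 with weights, 42 with the replicate block, 80 with the set block, 6 with median centring and 0 to 51 with an array left out. Any difference gave 218, but 532 trended, 381 with the macrophage and 94 with the atrial covariate, 855 with weights, 405 with the replicate block, 462 with the set block and 99 to 337 with an array left out. Sod3 and the second Nqo1 probe lie near background, which limits what their values can show.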
